A study of Mus musculus with 30 samples.

Results

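Estrogen receptors and enzymes that convert estrogens were followed in the scraped colon of mice that received azoxymethane and dextran sulfate sodium (AOM/DSS). The 6 genes were taken by symbol from a counts table of 46078 genes: the receptors Esr1, Esr2 and Gper1 and the hydroxysteroid dehydrogenases Hsd17b2, Hsd17b4 and Hsd17b11. All 6 were found, and all 6 were among the 16261 genes that passed the filter on low counts. The mice were wild-type C57BL/6J of both sexes, aged 5 to 10 weeks at the start. AOM, a colon carcinogen, was injected once at 10 mg/kg, and DSS, which injures the colon lining, was given at 2.5% in the drinking water in 3 cycles. There were 6 groups of 5 mice with 1 library per mouse: females and males with saline vehicle, 9 weeks after AOM, and 15 weeks after AOM. Vehicle mice were killed at 9 weeks only, so treatment and 6 further weeks of age cannot be told apart in the 15-week comparison. Both comparisons with vehicle share the same 10 vehicle libraries. The tissue was a scrape of the colon lining, described by the study as not tumor.

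Estrogen signals through nuclear receptors, encoded by Esr1 (ERalpha) and Esr2 (ERbeta), which bind DNA as dimers, and through the membrane receptor encoded by Gper1. In the intestine ERbeta is known as the main nuclear estrogen receptor of the epithelium, whereas ERalpha is known also from stromal and immune cells. Hsd17b enzymes interconvert active and weak sex steroids, and Hsd17b2 turns estradiol into estrone. Several of them have other substrates: Hsd17b4 is a peroxisomal enzyme of fatty acid beta-oxidation, and Hsd17b11 resides on lipid droplets.

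The libraries held 9265804 to 30806392 counts on genes, with a median of 24697064.5. The scrape carried epithelium in every library, since the score of 12 epithelial markers, their mean log2 CPM, was 8.95 or more. Other tissue varied between libraries. The score of 16 mesenchyme markers ran from 0.68 to 5.85 with vehicle, from 1.46 to 4.20 at 9 weeks and from -0.03 to 3.05 at 15 weeks, and no marker of any list was at 0 in every library. In such bulk samples, fewer cells of a type and less RNA per cell cannot be told apart. Male vehicle replicate 1, female vehicle replicate 1 and female 9-week replicate 5 were known from earlier work on these data as libraries that stand apart, and results that change without them are given both ways.

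The enzymes were abundant and the receptors were rare. On the length-scaled TPM scale, the median over all 30 libraries was 62.8 for Hsd17b2, 50.8 for Hsd17b11 and 16.8 for Hsd17b4. The receptors had medians of 0.345 TPM for Esr1, 0.265 for Esr2 and 0.152 for Gper1. Hsd17b11 exceeded Hsd17b4, and Hsd17b4 exceeded Esr1, in 30 of 30 libraries. The neighbours Hsd17b2 and Hsd17b11 had overlapping ranges, and Hsd17b2 was the higher of the pair in 24 of 30 libraries by TPM. The order of the receptors was not settled. Esr1 was above Esr2 in 22 of 30 libraries by TPM but in 13 of 30 by counts scaled to depth and exon length, and Gper1 was below Esr2 in 20 of 30 by TPM. With vehicle alone the TPM median of Esr2, 0.349, lay above that of Esr1, 0.295, with overlapping ranges. TPM was listed at 0 for Esr2 in 4 libraries that held 2 to 8 counts of it, and for Gper1 in 5 libraries that held 3 to 13. The scale between TPM and counts adjusted for depth also shifted from library to library, from 0.392 to 1.38 of its median over 9933 genes. For these reasons TPM was used here for levels between genes, and CPM (read counts over library size, scaled by TMM) for comparisons of 1 gene or 1 marker list between libraries.

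**Figure D1:**
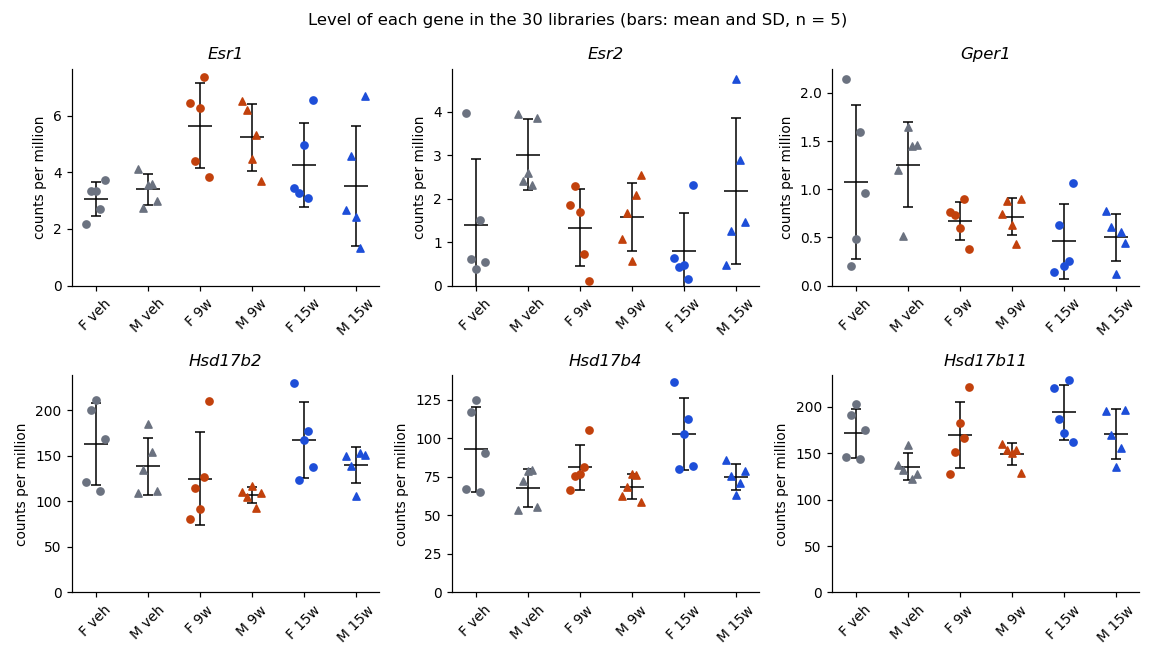
CPM of each gene in each library (points; circles female, triangles male), with the mean and SD of the 5 libraries of a group (bars); grey is vehicle, orange 9 weeks and blue 15 weeks of AOM/DSS, and each panel has its own axis starting at 0. Esr1 stood at 3.68 CPM or more in all 9-week libraries, and Gper1 exceeded 1.06 CPM only with vehicle.

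Esr1 (ENSMUSG00000019768) lies on chr10:4611593-5005614, plus strand, of GRCm38, the build of the files. RefSeq lists several starts for it on GRCm38.p6. The promoter of the first, 300 bases on the plus strand at chr10:4611739-4612038, is shown because this receptor changed at 9 weeks. Capitals mark the half-site of the estrogen response element, GGTCA or TGACC on the other strand, and the TATA box, TATAAA or TTTATA on the other strand.
Esr1: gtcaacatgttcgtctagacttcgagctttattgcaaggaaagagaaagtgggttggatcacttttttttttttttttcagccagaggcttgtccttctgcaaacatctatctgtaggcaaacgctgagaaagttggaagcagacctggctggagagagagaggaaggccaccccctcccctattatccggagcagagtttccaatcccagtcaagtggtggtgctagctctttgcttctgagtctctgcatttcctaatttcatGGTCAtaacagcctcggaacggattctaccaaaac
The sequence holds 1 half-site and no TATA box. A half-site is present in 40.5% and a TATA box in 13.6% of the 32851 promoters of the same length, and the full palindrome GGTCANNNTGACC in 0.0700%. No promoter of the 4 members examined held the palindrome. These matches describe the letters only.

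At 9 weeks of AOM/DSS, Esr1 rose 1.69-fold. The vehicle libraries held 2.18, 3.33, 3.33, 2.69 and 3.73 CPM in females and 4.10, 2.74, 3.56, 3.59 and 2.99 CPM in males. At 9 weeks the females held 6.43, 4.39, 6.25, 7.36 and 3.82 CPM and the males 6.52, 6.20, 4.48, 5.31 and 3.68 CPM. Of the 10 libraries at 9 weeks, 8 lay above every vehicle library and all 10 above the vehicle median. The fitted log2 fold change with the sexes averaged was 0.76 (SE 0.21, 95% interval 0.32 to 1.20, edgeR adjusted p = 0.0143). A gene was called when its adjusted p was under 0.05 and its log2 fold change beyond 0.4, and Esr1 was the member called of 6, where 12.0% of all tested genes were called. In females alone the log2 change was 0.89 (SE 0.30, adjusted p = 0.0980), where 4.05% of genes were called and DESeq2 called Esr1, and in males 0.62 (SE 0.30, adjusted p = 0.190), where 9.03% were. The male minus female response was -0.27, with an interval from -1.14 to 0.60.

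The leukocyte markers also rose at 9 weeks. Of 12 leukocyte markers, 7 were called higher at 9 weeks and none lower, where 12.0% of all genes were called. Their score ran from 0.83 to 1.95 with vehicle and from 1.93 to 3.42 at 9 weeks. With the leukocyte score of each library as a covariate, the log2 change of Esr1 was 0.29 (SE 0.33, adjusted p = 0.810), and the number of genes called fell from 1954 to 98. This score nearly separated the vehicle from the 9-week libraries, so the fit cannot tell the markers from the treatment. With the mesenchyme score as a covariate the log2 change of Esr1 was 0.61 (adjusted p = 0.0446). At 9 weeks 0 of the 16 mesenchyme markers were called, beside the same 12.0% of all genes. Counts of 71 to 184 per library stood behind the 9-week values, and the mean FPKM of Esr1 lay under 1 in each condition, the minimum that the study set for its own calls.

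At 15 weeks Esr1 was spread widely. The females held 3.45, 3.26, 4.98, 3.10 and 6.56 CPM and the males 2.67, 4.57, 2.42, 1.31 and 6.68 CPM. Of the 10 libraries, 4 lay above every vehicle library and 5 below the vehicle median, and 6 lay below every 9-week library. The log2 change against vehicle was 0.28 (SE 0.21, interval -0.16 to 0.72, adjusted p = 0.366), where 11.3% of genes were called. Against 9 weeks it was -0.48 (SE 0.21, adjusted p = 0.169), and edgeR called 0 of the 6 members where it called 4.32% of genes. At an unadjusted p under 0.05 there were 2 members, Esr1 and Hsd17b2, and 3846 genes, and DESeq2 called 0 members. Without male 15-week replicate 5 the log2 change of Esr1 between the times became -0.65, with an adjusted p of 0.0495. The range of single libraries, 1.31 to 6.68 CPM, contained the whole vehicle range.

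**Figure D2:**
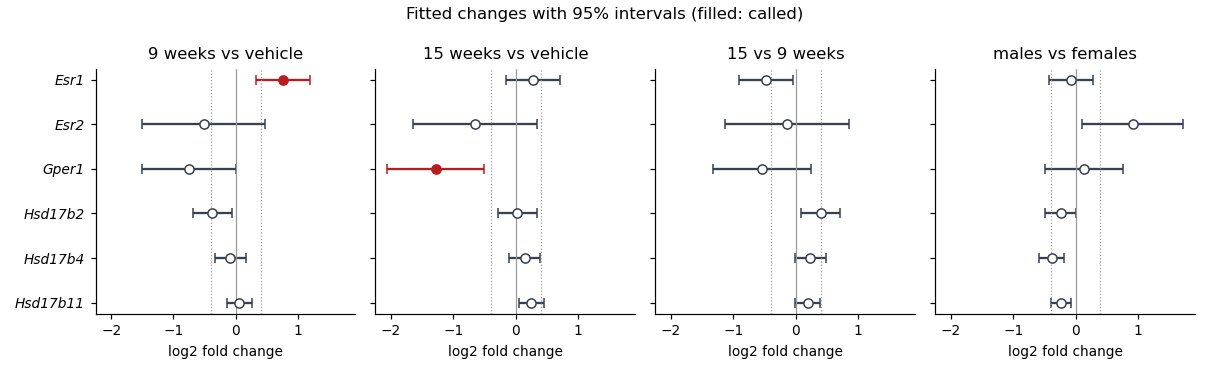
Fitted log2 fold change of each gene with its 95% interval, with the sexes averaged in the first 3 panels and the conditions averaged in the last; filled red points passed the call, and dotted lines mark 0.4 in either direction. Esr1 at 9 weeks (0.76) and Gper1 at 15 weeks (-1.28) were the called values.

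Gper1 (ENSMUSG00000053647) lies on chr5:139423151-139427800, plus strand. Its promoter, on the plus strand at chr5:139422929-139423228, is shown because this receptor changed at 15 weeks, with the same motifs in capitals.
Gper1: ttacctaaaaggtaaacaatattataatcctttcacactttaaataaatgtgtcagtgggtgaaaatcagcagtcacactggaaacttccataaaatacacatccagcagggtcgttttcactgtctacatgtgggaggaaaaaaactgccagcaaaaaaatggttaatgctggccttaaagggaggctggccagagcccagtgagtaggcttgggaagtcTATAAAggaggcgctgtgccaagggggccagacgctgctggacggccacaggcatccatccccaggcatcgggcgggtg
It holds 1 TATA box and no half-site.

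At 15 weeks of AOM/DSS, Gper1 fell to 0.411 of its vehicle level. With vehicle the females held 2.15, 0.203, 0.481, 1.59 and 0.960 CPM and the males 1.20, 0.514, 1.65, 1.45 and 1.46 CPM. At 15 weeks the females held 0.144, 0.630, 0.201, 0.250 and 1.06 CPM and the males 0.771, 0.612, 0.121, 0.551 and 0.445 CPM. All 10 libraries at 15 weeks lay below the vehicle median, and 3 of them below every vehicle library, so the groups overlapped. The log2 change was -1.28 (SE 0.38, interval -2.06 to -0.51, adjusted p = 0.0226), and Gper1 was the member called of 6, where 11.3% of all tested genes were called. By sex it was -1.23 in females (SE 0.54, adjusted p = 0.409), where 0.117% of genes were called, and -1.34 in males (SE 0.54, adjusted p = 0.0868), where 12.5% were. The male minus female response was -0.11, with an interval from -1.66 to 1.44.

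At 9 weeks the median, 0.738 CPM, lay between those of vehicle, 1.33, and 15 weeks, 0.498. The females held 0.761, 0.732, 0.597, 0.893 and 0.376 CPM and the males 0.744, 0.873, 0.625, 0.430 and 0.903 CPM, all 10 below the vehicle median. The log2 change against vehicle was -0.74 (SE 0.37, interval -1.50 to 0.01, adjusted p = 0.177), and 15 against 9 weeks gave -0.54 (SE 0.38, adjusted p = 0.389). The 9-week libraries were close together, from 0.376 to 0.903 CPM, where the vehicle libraries ran from 0.203 to 2.15.

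The 15-week call rested on few counts, 3 to 28 per library against 5 to 61 with vehicle. Without female vehicle replicate 1, the highest library, the log2 change was -1.07 (adjusted p = 0.0593), and without the 3 libraries that stand apart -1.07 (adjusted p = 0.0722). Stromal markers moved with Gper1: at 15 weeks 7 of 16 mesenchyme, 8 of 10 smooth muscle and 6 of 10 endothelial markers were called lower and none higher. The share of all genes called in this comparison was 11.3%. The score of the smooth muscle markers ran from -0.31 to 8.63 with vehicle and from -0.72 to 3.14 at 15 weeks, and that of the endothelial markers from -0.98 to 3.32 and from -1.53 to 1.63. With the mesenchyme score as a covariate the log2 change of Gper1 was -0.89 (SE 0.37, adjusted p = 0.109), and with the smooth muscle score -1.07 (adjusted p = 0.103). Gper1 lies inside 3110082I17Rik, a gene on the other strand with a median of 96.5 counts per library. That gene had a log2 change of -0.09 at 15 weeks (SE 0.15, adjusted p = 0.691).

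Esr2 (ENSMUSG00000021055) lies on chr12:76120419-76177259, minus strand, and a processed pseudogene within it, Gm7862, had 0 to 11 counts per library. Its promoter, on the minus strand at chr12:76177210-76177509, is shown for comparison with the other receptors, since this receptor itself binds the half-site in capitals.
Esr2: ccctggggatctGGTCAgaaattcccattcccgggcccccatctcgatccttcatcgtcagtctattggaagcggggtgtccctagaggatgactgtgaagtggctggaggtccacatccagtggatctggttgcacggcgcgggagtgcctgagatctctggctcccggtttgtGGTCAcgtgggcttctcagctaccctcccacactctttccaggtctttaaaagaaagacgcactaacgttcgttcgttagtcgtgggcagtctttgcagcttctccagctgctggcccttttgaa
It holds 2 half-sites and no TATA box.

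Esr2 varied widely within groups. With vehicle the females held 3.98, 0.608, 0.370, 1.50 and 0.533 CPM and the males 3.94, 2.40, 2.58, 2.31 and 3.85 CPM. Except for female replicate 1, every vehicle female lay below every vehicle male. At 9 weeks the females held 1.86, 2.28, 1.69, 0.723 and 0.108 CPM and the males 1.06, 1.66, 0.556, 2.09 and 2.53 CPM, and the sexes overlapped. At 15 weeks the females held 0.623, 0.420, 0.482, 0.143 and 2.31 CPM and the males 0.475, 1.26, 4.75, 2.89 and 1.47 CPM, and 4 of the 5 males lay above the female median. The lowest library of all, female 9-week replicate 5, had 2 counts.

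No comparison of Esr2 passed the test. The log2 change was -0.51 at 9 weeks (SE 0.48, interval -1.50 to 0.48, adjusted p = 0.528) and -0.65 at 15 weeks (SE 0.49, interval -1.65 to 0.34, adjusted p = 0.352). Males against females gave 1.08 with vehicle (SE 0.68, adjusted p = 0.414), 0.24 at 9 weeks (SE 0.68, adjusted p = 0.999) and 1.43 at 15 weeks (SE 0.70, adjusted p = 0.407). In these sex comparisons 0.252%, 0.0492% and 0.221% of genes were called by edgeR, and 0 of the 6 members. At an unadjusted p under 0.05 there were 2, 0 and 1 members and 3035, 630 and 2009 of the 16261 genes, and DESeq2 called 0 members. A comparison of males with females over the 3 conditions was added after the data were seen, and it called 4.66% of genes and 0 of the 6 members, with 3 members and 3692 genes at an unadjusted p under 0.05 and 0 members called by DESeq2. In it Esr2 was 0.92 higher in males (SE 0.40, interval 0.10 to 1.73, adjusted p = 0.162). Without female vehicle replicate 1 that value was 1.22 (adjusted p = 0.0326), and without female 15-week replicate 5 it was 1.23 (adjusted p = 0.0436). The difference therefore passed or missed the test with 1 library.

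Neither Esr1 nor Gper1 was called between the sexes. Over the 3 conditions males against females gave -0.07 for Esr1 (interval -0.43 to 0.28) and 0.13 for Gper1 (interval -0.49 to 0.76).

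The receptors were then set against mesenchyme content, since Esr1 and Gper1 are known from stromal cells. Each relation was tested by 100000 permutations of the libraries and adjusted over 63 relations. Gper1 followed the score (Pearson r = 0.567, Spearman rho = 0.516, adjusted permutation p = 0.00266 and 0.00823). On residuals from the 6 group means it still did, with r = 0.517 and an adjusted permutation p of 0.0214, and without the 2 libraries farthest from the median score r was 0.582. Within the conditions, 10 libraries each with the sexes pooled here and below, r was 0.492 with vehicle, 0.723 at 9 weeks and 0.538 at 15 weeks. Libraries with more mesenchyme RNA tended to hold more Gper1 in each of the 3 conditions. Other scores lay as close to Gper1 over all libraries, with r = 0.591 for endothelium and 0.516 for enteric neuron and glia (adjusted permutation p = 0.00189 and 0.00630). The differences between these relations were not tested.

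Esr1 followed the mesenchyme score less evenly. Over all libraries r was 0.455 and rho 0.421, with adjusted permutation p of 0.0190 and 0.0331, and r was 0.388 without the 2 farthest libraries. On residuals from the group means r was 0.406 and the adjusted permutation p 0.117. Within the conditions r was 0.0125 with vehicle, 0.336 at 9 weeks and 0.775 at 15 weeks, so among the vehicle libraries it was near 0. With the leukocyte score r of Esr1 was 0.634 over all libraries (adjusted permutation p = 0.000675) and 0.327 on residuals (adjusted permutation p = 0.137). Within the conditions this r was -0.248, 0.647 and 0.458.

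For Esr2 the sign of the relation to mesenchyme changed between conditions. The r over all libraries was 0.403 and rho 0.384 (adjusted permutation p = 0.0400 and 0.0526), and on residuals r was 0.295 (adjusted permutation p = 0.190). Within the conditions r was 0.886 with vehicle, 0.627 at 9 weeks and -0.303 at 15 weeks. The difference between these values was not tested. They pool the sexes, and the vehicle females other than replicate 1 lay below every vehicle male in both Esr2 and the score. The r with vehicle therefore cannot be told apart from a difference between the sexes. With the enteric neuron and glia score, of 7 tested markers, r of Esr2 was 0.543 over all libraries and 0.513 on residuals (adjusted permutation p = 0.00353 and 0.00923). With the epithelium score it was -0.520 and -0.533 (adjusted permutation p = 0.00606 and 0.00665). With the surface colonocyte score, described below, it was -0.541 and -0.548 (adjusted permutation p = 0.00443 and 0.00241). Differences between these relations were not tested.

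**Figure D3:**
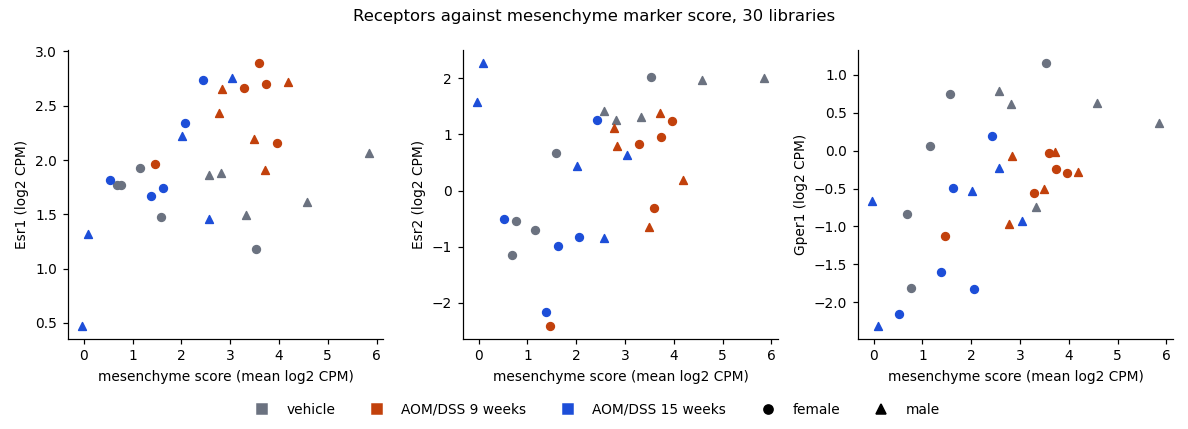
Log2 CPM of each receptor against the mesenchyme score (mean log2 CPM of 16 markers) in 30 libraries; colour gives the condition and shape the sex. Pearson r was 0.455 for Esr1, 0.403 for Esr2 and 0.567 for Gper1, and the vehicle libraries reach the highest scores, up to 5.85.

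The genes nearest to each receptor by Pearson r of log2 CPM over the 30 libraries are a description without a test. For Esr1 they were Pip4k2a (0.808), Anxa5 (0.805), Spp1 (0.786), Ret (0.778) and Mmp10 (0.774), of which Ret is also on the neuron and glia list. For Esr2 they were Clic6 (0.917), B3gnt7 (0.913), Thbs4 (0.907), Sik3 (0.903) and Adh1 (0.899). For Gper1 they were Hnf1aos1 (0.779), Pnpla1 (0.749), Pamr1 (0.740), Kctd1 (0.729) and Sfmbt2 (0.713). The r of Esr2 with its nearest genes exceeded that of the other receptors, although Esr2 was as rare as they were.

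Hsd17b2 (ENSMUSG00000031844, chr8:117701946-117759029, plus strand) oxidises estradiol and testosterone to weaker steroids. With vehicle the females held 121.3, 200.1, 211.0, 111.2 and 168.3 CPM and the males 109.5, 134.2, 184.4, 153.6 and 111.1 CPM. At 9 weeks the females held 80.9, 114.7, 91.6, 126.8 and 210.3 CPM and the males 110.4, 104.3, 117.2, 92.8 and 108.9 CPM. Of the 10 libraries at 9 weeks, 9 lay below the vehicle median and 5 below every vehicle library, and female replicate 5 lay near the top of the vehicle range. The log2 change was -0.38 (SE 0.15, interval -0.69 to -0.07, adjusted p = 0.0904). Without that library it was -0.52 (adjusted p = 0.00659), and without the 3 libraries that stand apart -0.59 (adjusted p = 0.00204). With the leukocyte score as a covariate, whose markers rose at 9 weeks as given above, the change turned to 0.06 (SE 0.22, adjusted p = 0.943). As for Esr1, this fit cannot tell the markers from the treatment. With the epithelium score the change of Hsd17b2 was -0.55 (adjusted p = 0.0177). With the score of 6 posterior Hox genes, a list chosen after the values were seen, it was -0.46 (adjusted p = 0.00719).

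At 15 weeks Hsd17b2 overlapped the vehicle range, with 1 library above and 1 below it. The females held 230.2, 123.5, 167.5, 177.6 and 137.3 CPM and the males 149.7, 138.9, 105.5, 152.7 and 150.3 CPM. The log2 change against vehicle was 0.03 (SE 0.15, interval -0.29 to 0.34, adjusted p = 0.924). Against 9 weeks it was 0.40 (SE 0.15, interval 0.09 to 0.72, adjusted p = 0.109), and 0.54 (adjusted p = 0.00535) without the 3 libraries. Males against females gave -0.24 over the 3 conditions (SE 0.12, adjusted p = 0.256).

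Hsd17b4 (ENSMUSG00000024507, chr18:50128201-50196269, plus strand) encodes the multifunctional enzyme of peroxisomal beta-oxidation, and a pseudogene within it, Cd63-ps, had 17 to 64 counts. With vehicle the females held 67.1, 117.1, 124.7, 65.3 and 90.3 CPM and the males 53.1, 72.2, 78.4, 79.2 and 55.3 CPM. At 15 weeks the females held 136.5, 79.9, 102.9, 112.5 and 81.7 CPM and the males 86.0, 75.6, 63.1, 71.2 and 78.7 CPM. All 5 males lay below the female median with vehicle and at 15 weeks, and 4 of the 5 males at 15 weeks lay below every female. At 9 weeks the females ran from 66.5 to 105 CPM and the males from 58.9 to 77.1 CPM.

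Hsd17b4 was lower in males but was not called. Males against females gave -0.46 with vehicle (SE 0.17, adjusted p = 0.151), -0.24 at 9 weeks (SE 0.17, adjusted p = 0.999) and -0.46 at 15 weeks (SE 0.17, adjusted p = 0.254). Over the 3 conditions it was -0.39 (SE 0.10, interval -0.59 to -0.18, adjusted p = 0.0241), a male level of 0.766 of the female one and just under the fold threshold. This value passed the call, at -0.40 to -0.42, in 8 of 30 fits without 1 library. These libraries were female vehicle replicates 1 and 4, male vehicle replicates 3 and 4, female 9-week replicate 1, male 9-week replicate 3 and female 15-week replicates 2 and 5. With vehicle the difference was -0.56 (adjusted p = 0.0424) without female vehicle replicate 1, and at 15 weeks -0.56 (adjusted p = 0.0397) with the epithelium score as a covariate. Of the smooth muscle markers 5 of 10 and of the endothelial markers 2 of 10 were called higher in males, where 4.66% of all genes were called. Of the mesenchyme markers 0 of 16 were called by edgeR, but their median log2 difference was 1.01, beside 0.005 over all genes. The mesenchyme score ran from 0.53 to 3.97 in females and from -0.03 to 5.85 in males. With the mesenchyme score as a covariate the difference over the 3 conditions was -0.25 (adjusted p = 0.269) and with the smooth muscle score -0.30 (adjusted p = 0.182). AOM/DSS against vehicle gave -0.09 at 9 weeks (SE 0.12, adjusted p = 0.691) and 0.15 at 15 weeks (SE 0.12, adjusted p = 0.413).

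Hsd17b11 (ENSMUSG00000029311, chr5:103989762-104021919, minus strand), the lipid droplet enzyme, varied least relative to its mean, with an SD of 29.8 around 165 CPM over the 30 libraries. With vehicle the females held 146.4, 190.9, 203.0, 143.7 and 174.9 CPM and the males 137.1, 131.8, 159.4, 122.001 and 127.8 CPM. At 15 weeks the females held 220.2, 187.5, 171.6, 228.5 and 162.1 CPM and the males 196.1, 170.0, 134.7, 155.8 and 196.6 CPM, 9 of 10 above the vehicle median. The log2 change was 0.25 at 15 weeks (SE 0.09, interval 0.06 to 0.45, adjusted p = 0.0615) and 0.06 at 9 weeks (SE 0.09, adjusted p = 0.725). Males against females gave -0.24 over the 3 conditions (SE 0.08, interval -0.40 to -0.08, adjusted p = 0.0613). With vehicle 4 of the 5 males lay below every female.

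The 3 enzymes moved together from library to library. Pearson r of log2 CPM was 0.810 for Hsd17b2 with Hsd17b4, 0.807 for Hsd17b4 with Hsd17b11 and 0.665 for Hsd17b2 with Hsd17b11. Spearman rho was 0.798, 0.797 and 0.633, and on residuals from the group means r was 0.863, 0.736 and 0.732, with adjusted permutation p of 0.000126, 0.000945 and 0.00133. With both genes on log2 TPM r was 0.919, 0.933 and 0.864, a scale whose library shift, given above, a pair of genes shares. Each enzyme also followed the score of 12 surface colonocyte markers, genes of the absorptive cells at the crypt top. The r with this score was 0.821 for Hsd17b2, 0.797 for Hsd17b4 and 0.665 for Hsd17b11, and rho was 0.883, 0.800 and 0.683. On residuals r was 0.799, 0.813 and 0.619 (adjusted permutation p = 0.000126, 0.000126 and 0.00233). Without the 2 libraries farthest from the median score r was 0.902, 0.745 and 0.638.

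With the level of the enzymes taken as log2 TPM, these relations to the surface colonocyte score were 0.258, 0.173 and -0.00387. With the mesenchyme score Hsd17b2, Hsd17b4 and Hsd17b11 had r of -0.587, -0.631 and -0.502 on the CPM scale, and on log2 TPM the sign turned, to 0.163, 0.203 and 0.373. Within 15 weeks r on the CPM scale was -0.0269, 0.0350 and 0.309. The sign of these relations therefore differed with the scale of the gene and with the condition. The scores stayed on log2 CPM, while TPM carries the library shift given above, so the TPM values mix the scales. They cannot decide the sign of a relation. With the receptors on log2 TPM, r with mesenchyme was 0.613, 0.565 and 0.626 for Esr1, Esr2 and Gper1, positive as on the CPM scale but with the same limit.

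**Figure D4:**
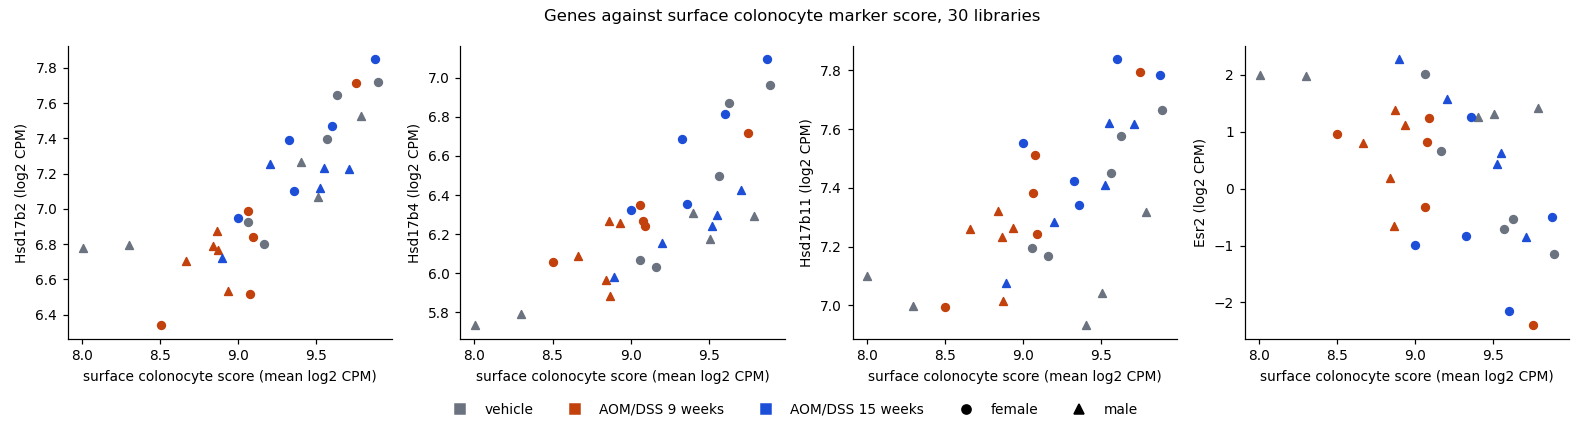
Log2 CPM of the 3 enzymes and of Esr2 against the surface colonocyte score (mean log2 CPM of 12 markers) in 30 libraries; colour gives the condition and shape the sex. On this scale the enzymes rise with the score (r from 0.665 to 0.821) and Esr2 declines (r = -0.541). With the enzymes but not the score on log2 TPM, r was -0.00387 to 0.258.

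On the CPM scale Esr2 ran against the enzymes. On log2 TPM, where both genes of a pair share the library shift given above, its r with them was not negative. On the CPM scale its r was -0.803 with Hsd17b11, -0.762 with Hsd17b4 and -0.578 with Hsd17b2, with rho of -0.767, -0.743 and -0.498. On residuals r was -0.753, -0.689 and -0.682 (adjusted permutation p = 0.000990, 0.00118 and 0.00339), and r was negative in each condition. In the vehicle libraries r of Esr2 with Hsd17b4 was -0.884, at 9 weeks -0.775 and at 15 weeks -0.723. For Esr1 the r with the same enzymes was 0.0617, -0.0133 and -0.293, and for Gper1 -0.509, -0.579 and -0.347. With both genes on log2 TPM r of Esr2 was 0.191 with Hsd17b11, 0.0873 with Hsd17b4 and 0.121 with Hsd17b2 (permutation p = 0.315, 0.650 and 0.528). In the same order it was 0.751, 0.666 and 0.505 for Esr1 and 0.327, 0.222 and 0.288 for Gper1. Because both genes share the shift, the TPM values cannot decide whether Esr2 runs against the enzymes. The 15 pairs were added after the data were seen and adjusted with the 48 relations to scores.

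The members were also set against 6 posterior Hox genes (Hoxa13, Hoxb13, Hoxd10, Hoxd11, Hoxd12 and Hoxd13), which are known to mark the distal hindgut. The list was chosen after the values were seen, so its relations are given without p-values. They were still among the 63 relations over which the permutation p-values were adjusted. The r of Esr2 with their mean log2 CPM was 0.783, and 0.839, 0.813 and 0.801 within vehicle, 9 weeks and 15 weeks. The r of Gper1 was 0.580 and that of Esr1 -0.123. The r of Hsd17b4 was -0.815, of Hsd17b11 -0.771 and of Hsd17b2 -0.601, and with these enzymes on log2 TPM it was -0.137, 0.00767 and -0.0618. That of Esr2 on log2 TPM was 0.781. At 15 weeks 4 of the 6 Hox genes were called lower, where 11.3% of all genes were called. The score itself ran from -0.66 to 6.13 with vehicle, from -0.95 to 3.43 at 9 weeks and from -1.17 to 2.80 at 15 weeks. With this score as a covariate the male excess of Esr2 was 0.43 (SE 0.30, adjusted p = 0.524), the sex difference of Hsd17b4 was -0.18 (adjusted p = 0.273), and the 15-week change of Gper1 was -0.70 (adjusted p = 0.436). The change of Esr1 at 9 weeks was 0.74 (adjusted p = 0.0158). These fits used the list chosen after the values were seen, and its score tracked Esr2 and Hsd17b4 in the same libraries. Their adjusted p-values are therefore a description, and what lies behind the differences was not tested.

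**Figure D5:**
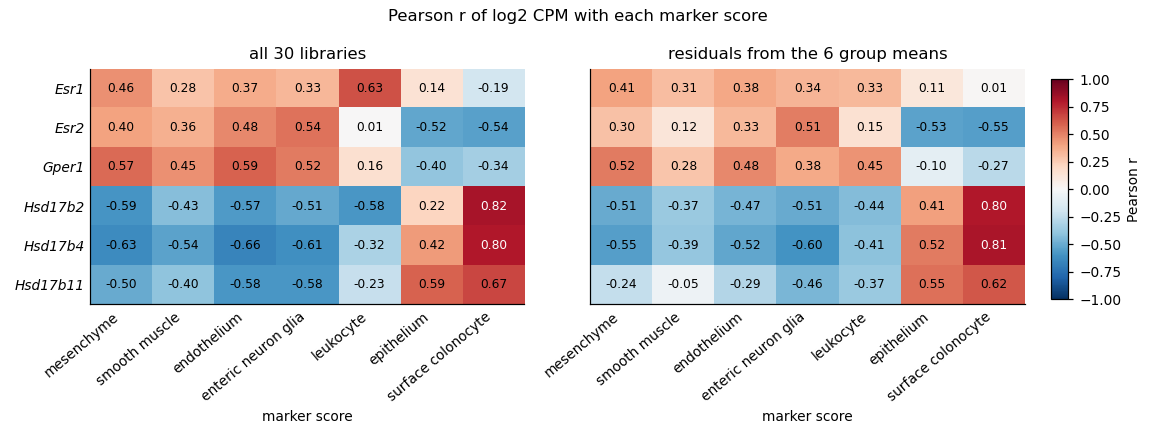
Pearson r of log2 CPM of each gene with 7 marker scores, over all 30 libraries on the left and on residuals from the 6 group means on the right. The receptors are positive with mesenchyme (0.403 to 0.567 on the left) and the enzymes negative (-0.631 to -0.502). The latter turned positive with the enzymes, but not the score, on log2 TPM.

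The nearest genes of the enzymes were closer than those of Esr1 and Gper1. For Hsd17b2 they were Prss23 (0.912), Tcn2 (0.911), Ces2a (0.902), Ugdh (0.892) and Pgm2 (0.892). For Hsd17b4 they were Scp2 (0.945), the gene of a peroxisomal sterol carrier and thiolase, Slc35d1 (0.928), Iapp (0.924), Adk (0.919) and 4931406C07Rik (0.919). For Hsd17b11 they were Hint3 (0.900), Ndrg1 (0.899), Cst6 (0.876), Cmbl (0.871) and Spryd7 (0.869).

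Of 35 other genes of sex steroid metabolism, 22 were tested. At 9 weeks 2 were called higher and 1 lower, where 12.0% of all genes were called, and at 15 weeks 1 higher and 1 lower, where 11.3% were. Between the sexes over the 3 conditions 1 was called higher in males and 5 lower, where 4.66% of all genes were called. Sult1a1, a sulfotransferase of phenolic compounds including estrogens, fell by 0.64 on the log2 scale at 9 weeks (SE 0.17, adjusted p = 0.00879), from a median of 389 CPM with vehicle to 223. Hsd17b7, which acts in estradiol and cholesterol synthesis, rose by 0.58 (SE 0.16, adjusted p = 0.0115), and Hsd17b12, an enzyme of fatty acid elongation, rose by 0.41 (SE 0.09, adjusted p = 0.00269). At 15 weeks the aldo-keto reductase gene Akr1c18 rose by 1.32 (SE 0.42, adjusted p = 0.0320) and Akr1c14 fell by 0.50 (SE 0.13, adjusted p = 0.0106). Between 9 and 15 weeks 0 of the 22 were called, where 4.32% of all genes were. The list's median log2 change was -0.11 at 9 weeks and 0.05 at 15 weeks, against -0.02 and -0.03 over all tested genes.

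Of 23 tested receptor coregulators, 1 was called at 9 weeks and 2 at 15 weeks, all lower, where 12.0% and 11.3% of all genes were called. The coactivator gene Ppargc1a fell by 0.83 at 9 weeks (SE 0.16, adjusted p = 0.000595) and by 0.82 at 15 weeks (SE 0.16, adjusted p = 0.00169) on the log2 scale. Ncoa4, a coactivator that also directs ferritin breakdown, fell by 0.43 at 15 weeks (SE 0.14, adjusted p = 0.0293). Of the 2 tested estrogen-related receptors, orphan receptors that do not bind estradiol, Esrrg fell by 1.15 at 15 weeks (SE 0.38, adjusted p = 0.0380). The medians of the coregulators were -0.09 and -0.18, beside -0.02 and -0.03 over all genes.

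Genes known to respond to estrogen in other tissues moved in both directions. Of 20 tested, 6 were called higher and 2 lower at 9 weeks, and 2 higher and 1 lower at 15 weeks, where 12.0% and 11.3% of all genes were called. The medians were 0.22 and 0.17, beside -0.02 and -0.03 over all genes. Gata3, a transcription factor gene of lymphocytes and mammary epithelium, rose by 4.08 at 9 weeks (SE 0.59, adjusted p = 1.68e-05) and by 2.51 at 15 weeks (SE 0.58, adjusted p = 0.00624) on the log2 scale, from a median of 0.0539 CPM with vehicle. The complement gene C3 rose by 2.33 at 9 weeks (SE 0.52, adjusted p = 0.00251), and the prolactin receptor gene Prlr fell by 1.70 (SE 0.33, adjusted p = 0.000708). At 15 weeks Areg, an EGF receptor ligand gene, rose by 0.87 (SE 0.21, adjusted p = 0.00721) and the chemokine gene Cxcl12 fell by 1.35 (SE 0.40, adjusted p = 0.0238). Gata3, C3 and Cxcl12 are also expressed by immune or stromal cells, and the leukocyte and mesenchyme markers given above moved at the same times. Their part in these changes was not tested.

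Partners of Hsd17b4 and Hsd17b11 were taken from peroxisomes and lipid droplets. Of 23 peroxisomal beta-oxidation genes, edgeR called 1 at 9 weeks and 0 at 15 weeks, where 12.0% and 11.3% of all genes were called. The one was Acox2, an oxidase of branched fatty acids and bile acid intermediates, which rose by 1.09 (SE 0.31, adjusted p = 0.0145). Of 20 lipid droplet genes, 3 were called higher and 1 lower at 9 weeks, and 2 higher and 1 lower at 15 weeks, beside the same shares of all genes. The droplet coat gene Plin4 fell by 2.34 at 9 weeks (SE 0.42, adjusted p = 0.000267) and by 1.54 at 15 weeks (SE 0.41, adjusted p = 0.0135). Its relative Plin5 rose by 1.46 and 1.39 (adjusted p = 0.0258 and 0.0359). Dgat2, which makes triglyceride, rose by 1.14 (SE 0.16, adjusted p = 1.45e-05) and 1.004 (SE 0.16, adjusted p = 0.000260). G0s2, which encodes a lipase inhibitor, was called between 9 and 15 weeks, where it fell by 2.57 (SE 0.69, adjusted p = 0.0359).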

How the data were processed

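RNA of colon scrapes from 30 mice was sequenced by the study as stranded poly(A)-selected mRNA. Per the labels, the authors aligned reads to mm10 (GRCm38) with STAR and counted them with featureCounts, and the deposited raw counts are unnormalized. The deposited FPKM and TPM values are StringTie estimates by the authors, and the deposited coverage (signal) column was not used. Groups came from the sample titles. 

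Counts were tested with edgeR 4.0.16 in R 4.3.3 by the quasi-likelihood test. Genes were kept by filterByExpr, scaled by TMM (factors 0.832 to 1.10) and fitted with 1 coefficient per group in all 30 libraries, with p-values adjusted by the Benjamini-Hochberg method over 16261 genes. The fit was tested on simulated data. Log2 CPM used a prior count of 2 and log2 TPM a pseudocount of 0.1. The study's FPKM minimum of 1 was kept as an alternative, with DESeq2 1.42.0, other scaling, marker covariates and left-out libraries. The genes named beyond the members were up to 3 called genes with the largest change per list and comparison, the 5 nearest genes of each member, and overlapping genes. The members and lists were chosen with earlier results of these data known. Permutation p-values below 1e-05 could not be reached. Promoters are those of RefSeq on GRCm38.p6, matched by symbol for 4 of the 6 members. Windows on chromosome 18, where Hsd17b4 lies, were left out, so no promoter of Hsd17b4 was examined. No library pair within a group was a copy.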

Additional observations from a re-analysis of the deposited data

Results flagged for a closer look

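In 2 of the 36 sets of 5 libraries (6 genes in 6 groups), 1 library stood far from the other four. Chance alone would mark about 1 set in 20. Gper1 in male vehicle replicate 2 was at a log2 CPM of -0.75 against a group median of 0.62, from 12 counts, and the other 4 male vehicle libraries held 37 to 44. Hsd17b2 in male 15-week replicate 3 was at a log2 CPM of 6.72 against a median of 7.23, from 2622 counts or 106 CPM. That library also held the highest Esr2 level of all, 4.75 CPM, and the lowest Gper1 level, 0.121 CPM.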

How the results depend on the processing

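The labels number the replicates of every group 1 to 5, but the numbers did not pair the libraries: over 75 pairs of libraries with the same number in different groups, the median correlation of deviations was -0.026, and 12 pairs exceeded 0.1. With the replicate block, Esr1 at 9 weeks was 0.78 (adjusted p = 0.0205) and Gper1 at 15 weeks -1.30 (adjusted p = 0.0369), with 1 member called in each comparison as before. The use of the leukocyte and posterior Hox scores and the comparison of the sexes over the conditions were chosen after seeing the data. So was the neuron and glia score as a covariate, whereas its relations to the members were planned.

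At 9 weeks against vehicle the number of members called, 1, became 0 under the FPKM minimum and with the leukocyte score as a covariate, and 2 with the epithelium score, with the posterior Hox score and without the 3 libraries that stand apart, each time by Hsd17b2. At 15 weeks against vehicle it became 0 under the FPKM minimum, with edgeR on the compared groups, with the mesenchyme, smooth muscle, epithelium, neuron and glia or posterior Hox score, and without the 3 libraries. Between 15 and 9 weeks it became 1 without the 3 libraries. With single libraries left out the number ran from 1 to 2 at 9 weeks, from 0 to 1 at 15 weeks and between the times, and from 0 to 2 between the sexes. The log2 change of Esr1 at 9 weeks ran from 0.70 to 0.81 and that of Gper1 at 15 weeks from -1.58 to -1.07. On residuals from the group means, r with mesenchyme was 0.406 for Esr1 (permutation p = 0.0705) and 0.295 for Esr2 (permutation p = 0.140). The 9-week change of Hsd17b2 turned to 0.060 with the leukocyte score, and on log2 TPM r of Hsd17b11 with the surface colonocyte score turned to -0.00387, r of Hsd17b2, Hsd17b4 and Hsd17b11 with mesenchyme to 0.163, 0.203 and 0.373, and r of Esr2 with them to 0.121, 0.0873 and 0.191. The cause was not tested.

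The number of all genes called was 1954 at 9 weeks, 1839 at 15 weeks, 703 between the times and 758 between the sexes. Across the alternatives other than single left-out libraries it ran from 98 to 2817, from 183 to 2331, from 0 to 2317 and from 24 to 1248, the lowest with a marker score as a covariate and the highest without the 3 libraries or by DESeq2.

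In all, 42 member values were recomputed in 7 comparisons. Of 546 alternatives other than single left-out libraries, 530 kept the call without reversing a value whose interval excluded 0. So did 1245 of 1260 fits without 1 library. These totals mostly count uncalled values that stayed uncalled, so they do not measure how stable the calls were. The called values were that of Esr1 and that of Gper1 given above. Among the 546 alternatives a call was lost in 10, most of them for Gper1, and gained in 5, and 1 value was reversed. A change of sign in a value whose interval included 0 was not counted as a reversal. Of the 30 values whose interval included 0, 19 changed sign under at least 1 alternative. The receptors were rare at this depth, with as few as 2 counts of Esr2 and 3 of Gper1 in a library.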

Other observations

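Female 9-week replicate 5 departed from the other 9-week libraries in several of these genes at once. It held 210 CPM of Hsd17b2 where the other 9 libraries held 80.9 to 127, 105 CPM of Hsd17b4 where they held 58.9 to 81.5, and 222 CPM of Hsd17b11 where they held 127 to 182. Its Esr2 level of 0.108 CPM and its Gper1 level of 0.376 CPM were the lowest at 9 weeks. Female 15-week replicate 5 departed the other way within its group, with the highest Esr1 (6.56 CPM), Esr2 (2.31 CPM) and Gper1 (1.06 CPM) of the 5 females.

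Genes of sex steroid metabolism outside the naming rule were called between the sexes over the 3 conditions, and they are named here after their values were seen. Of the 22 tested, 5 were lower and 1 higher in males, where 4.66% of all genes were called. Of all genes 758 were called in this comparison. With the mesenchyme, smooth muscle or posterior Hox score as a covariate 33, 28 and 24 were. With the epithelium, leukocyte or neuron and glia score 1028, 854 and 619 were. Values of the genes named here with these covariates are not given. Ugt1a1, which glucuronidates estradiol and bilirubin, had a log2 difference of -1.85 (SE 0.47, edgeR adjusted p = 0.0218), and Hsd17b14 had -1.74 (SE 0.42, adjusted p = 0.0169). Hsd17b13 had -1.31, Akr1c19 had -0.85 and Sult1a1 had -0.47. The steroid reductase gene Srd5a2 was the one higher in males, by 0.87 (SE 0.19, adjusted p = 0.0109).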
